A study of Mus musculus with 14 samples.

Results

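The genomic sites of the homeodomain transcription factor NKX2.2 at the genes of 7 islet transcription factors were examined: Nkx2-2 itself, Pax6, Isl1, Irx1, Irx2, Foxa2 and Rfx6. A site was assigned to one of these genes when it was the nearest protein-coding gene, with a distance of 0 for overlap. This gave 25 of the 6758 regions listed in the authors' deposited table. The assignment rests on position and uses neither the fold change nor the p-value of a site. The 7 genes themselves were chosen with earlier results of these data known.

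NKX2.2 was recovered by chromatin immunoprecipitation and sequencing (ChIP-seq) with an antibody against the protein, from alphaTC6, a clonal mouse line of glucagon-producing alpha cells that descends from a pancreatic tumour of transgenic mice. Genotype is labelled WT throughout. All cultures were reverse-transfected for 48 h with RNAiMax, either with a small interfering RNA against Klf4 (3 NKX2.2 ChIP and 3 input samples) or with a scrambled control siRNA (4 NKX2.2 ChIP and 4 input samples). The comparison asks how genomic occupancy of NKX2.2 differs when Klf4, a zinc-finger transcription factor, is knocked down.

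The deposited table holds 1 row per region and no value for any of the 14 samples. Depth, enrichment over input, the spread between cultures, the knockdown of Klf4 and the identity of the cells could therefore not be measured from it. A region is called a site here because it is listed, and its occupancy over input was not examined. A region joins neighbouring 10 bp windows that were tested with csaw. Each row carries a p-value combined over its windows, the false discovery rate (FDR) over the whole table, and the log2 fold change of a representative window and of the best window, the one with the smallest p-value. Which group is the numerator is not stated in the table, so a positive value is called listed as up and a negative one listed as down, with no translation into gain or loss on knockdown. Coordinates are those of the table, in build mm10 per the submitters' processing notes.

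In the pancreas, a small set of transcription factors sets up and keeps the hormone-producing cell types, and many of them act on each other's genes. NKX2.2 is a homeodomain factor of the NK2 class, which binds DNA with an AAGTG core and acts as a repressor or an activator depending on its partners. Pax6, a paired-domain and homeodomain factor, and Isl1, a LIM-homeodomain factor, are needed for islet hormone expression. Irx1 and Irx2 are Iroquois homeodomain factors found in alpha cells within the islet. Foxa2 is a forkhead factor that opens chromatin in endoderm, and Rfx6 is a winged-helix factor of endocrine development.

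At 2 of the 7 genes, Nkx2-2 and Irx2, a site reached into the 250 bases before a listed transcription start. Those bases are shown, as no other listed start of these genes had a site in that window. No start was listed for Irx1, so its promoter could not be examined. Sequences are from RefSeq, build GRCm38.p6, read 5′ to 3′ on the strand of the gene and ending at the base before the start. Capitals mark the bases under the site. The first is chr2:147186403-147186652 on the minus strand, and the second is chr13:72628570-72628819 on the plus strand.
Nkx2-2: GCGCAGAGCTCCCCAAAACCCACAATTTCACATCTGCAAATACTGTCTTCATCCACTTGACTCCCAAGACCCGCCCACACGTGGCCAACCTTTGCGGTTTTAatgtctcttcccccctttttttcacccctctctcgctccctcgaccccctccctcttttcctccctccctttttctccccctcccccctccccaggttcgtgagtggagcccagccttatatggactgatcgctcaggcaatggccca
Irx2: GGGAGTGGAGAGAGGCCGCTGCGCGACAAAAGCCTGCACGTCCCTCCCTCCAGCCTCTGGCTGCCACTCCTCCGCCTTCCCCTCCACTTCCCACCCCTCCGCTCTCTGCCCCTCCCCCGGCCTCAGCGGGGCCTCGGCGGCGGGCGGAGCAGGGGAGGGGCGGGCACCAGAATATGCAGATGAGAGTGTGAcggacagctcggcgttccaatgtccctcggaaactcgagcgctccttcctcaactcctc

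The site at Nkx2-2 covered 102 of these bases and that at Irx2 covered 191. Starts were listed for 6 of the 7 genes, 9 in all, and 2 of the 9 windows of 250 bases were overlapped by a site. Over all 32851 such windows in the RefSeq table, 4.91% were overlapped by a region.

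Matches to 2 motif cores were searched on both strands of these windows. AAGTG, or CACTT on the other strand, is the core of NK2-class sites, and CACCC, or GGGTG, is the core bound by KLF factors. The Nkx2-2 window holds CACTT from 197 to 193 bases before the start, within the capitals. Together with the next letters it reads CACTTGA, a match to the longer NK2 form TNAAGTG, which contains AAGTG and was added after the letters had been read. The single CACCC of that window lies from 126 to 122 bases before the start, outside the capitals. The Irx2 window holds CACTT from 166 to 162 and CACCC from 159 to 155 bases before the start, both within the capitals.

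Among the 9 windows of these genes, 4 hold AAGTG, 1 holds TNAAGTG and 6 hold CACCC, on either strand. Over all 32851 windows the shares are 40.7%, 10.1% and 52.0%. Such short cores are common in any promoter, and a match describes the letters only.

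None of the 25 sites reached an FDR of 0.05 in the authors' csaw comparison, where 1.36% of all regions did. The smallest FDR among them was 0.289, at a distant site of Isl1. At an FDR of 0.1 the count was 0 as well, where 2.31% of all regions passed, and at 0.01 it was 0 against 0.592%. Before adjustment, 3 of the 25 (12.0%) had a p-value under 0.05, close to the 11.2% of all regions. The table counts single windows as up or down only in the 759 regions with such a p-value, so such counts add nothing independent to the p-value. With the best-window FDR the count at 0.05 was also 0, where 1.20% of all regions passed. Values per culture are not in the table, so the size of difference that the comparison could have detected at these genes is unknown.

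The deposited log2 fold changes of the 25 sites ran from -0.61 to 0.76, with a median of 0.01. Over all regions the median was 0.04. Of the 25, 14 were positive and 11 negative, and the 56.0% positive share stood beside 56.8% in the whole table. The direction column named 10 of them up (40.0%, against 47.2% of all regions), 10 down (40.0%, against 33.4%) and 5 mixed (20.0%, against 19.4%). Every gene with more than 1 site had sites of both signs. How often this held for other genes with several sites was not counted.

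**Figure D1:**
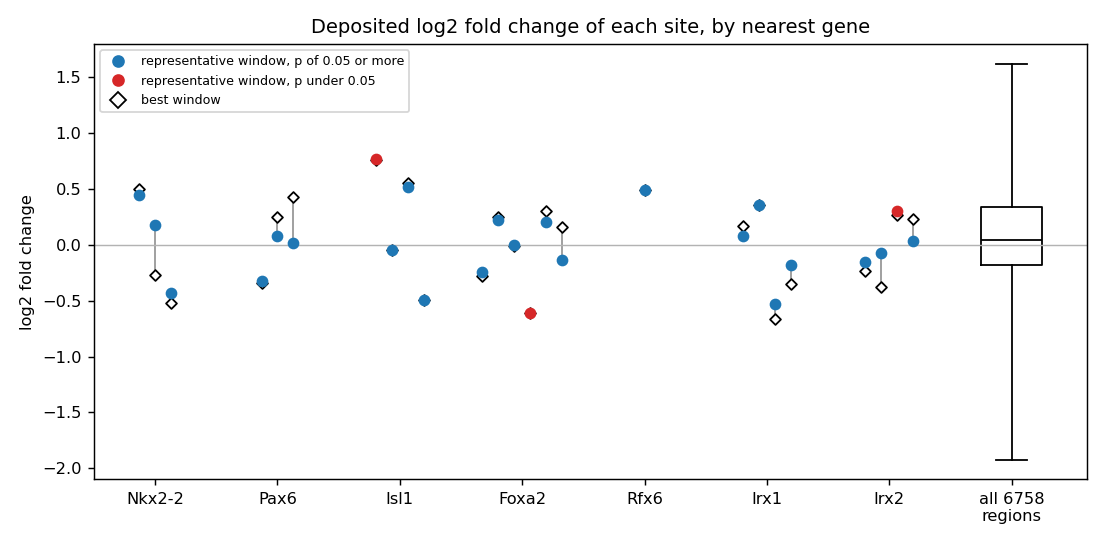
Deposited log2 fold change of each of the 25 sites (y axis) by nearest gene (x axis), in genome order within a gene; circles are representative windows, red where the combined p-value is under 0.05, diamonds are best windows, and the box gives the quartiles and full range of all 6758 regions. The 3 red sites belong to Isl1 (0.76), Foxa2 (-0.61) and Irx2 (0.30), and signs are mixed at every gene with more than 1 site.

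All of these genes but Rfx6 carried several sites. Of the 4543 protein-coding genes with a region, 492 (10.8%) had 3 or more, and 6 of the 7 genes here were among them. Of the genes with a site in a list of other islet factors, 6 of 14 also had 3 or more. In a list of family paralogs, 3 of 8 did. Both lists are described below. Foxa2 had 6 sites, a number reached by 63 genes (1.39%). Isl1, Irx1 and Irx2 had 4 each, Nkx2-2 and Pax6 had 3 each, and Rfx6 had 1. The largest number nearest to any gene was 12. Whether the long gaps beside these genes, given next, bear on their number of sites was not tested.

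The sites were of ordinary size, and a larger share than in the whole table lay far from a coding gene. Their median width of 110 bp and median of 3 windows equalled those of the whole table, and 3 of the 25 were single windows. At least 7 windows were joined in 4 of the 25 (16.0%, against 8.57% of all regions). A protein-coding gene was overlapped by 7 of the 25 (28.0%, against 55.8% of all regions). Beyond 10 kb lay 13 of them (52.0%, against 25.4%), and 8 lay over 100 kb from the gene they were assigned to (32.0%, against 8.80%). This was not particular to these genes: in the list of family paralogs the 2 shares were 50% and 28.6%. In the list of other islet factors they were 26.5% and 17.6%. The next coding gene was over 100 kb away on at least one side of each gene; the longest such gap, on the lower side of Isl1, was 1196 kb.

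Nkx2-2, the gene of the immunoprecipitated factor, lies on chromosome 2 from 147176485 to 147195434 on the minus strand. Its 3 sites fell within 8.91 kb, all of them also inside the overlapping long non-coding RNA gene Nkx2-2os. The gene table gives bounds only, so a site inside a gene was not placed in an exon or an intron.

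The first Nkx2-2 site, from 147186551 to 147187410, begins 149 bp upstream of the listed start and is the one shown in capitals above. It was 860 bp wide, but its 11 windows filled only part of the 18 steps of 50 bp in that span. Its log2 fold change in the deposited table was 0.45, at a combined p-value of 0.574. The best window gave 0.50.

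The second site, from 147190701 to 147190910, held 5 windows and was listed as mixed. The representative window gave a deposited log2 fold change of 0.18 and the best window -0.27, and the combined p-value was 0.794. The third, from 147195201 to 147195460, held 6 windows and spans the upper end of the gene bounds, 8799 bp upstream of the listed start. Here the deposited log2 fold change was -0.44. Its p-value, 0.139, was the smallest of the 3, and its FDR was 0.654. The site beside the listed start and the site at the 5′ end of the gene bounds thus carried opposite signs, and neither passed the test. No start was listed at that 5′ end, so the bases before it were not examined. The neighbouring coding genes, Nkx2-4 at 91.0 kb and Pax1 at 166 kb, had no site assigned to them.

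**Figure D2:**
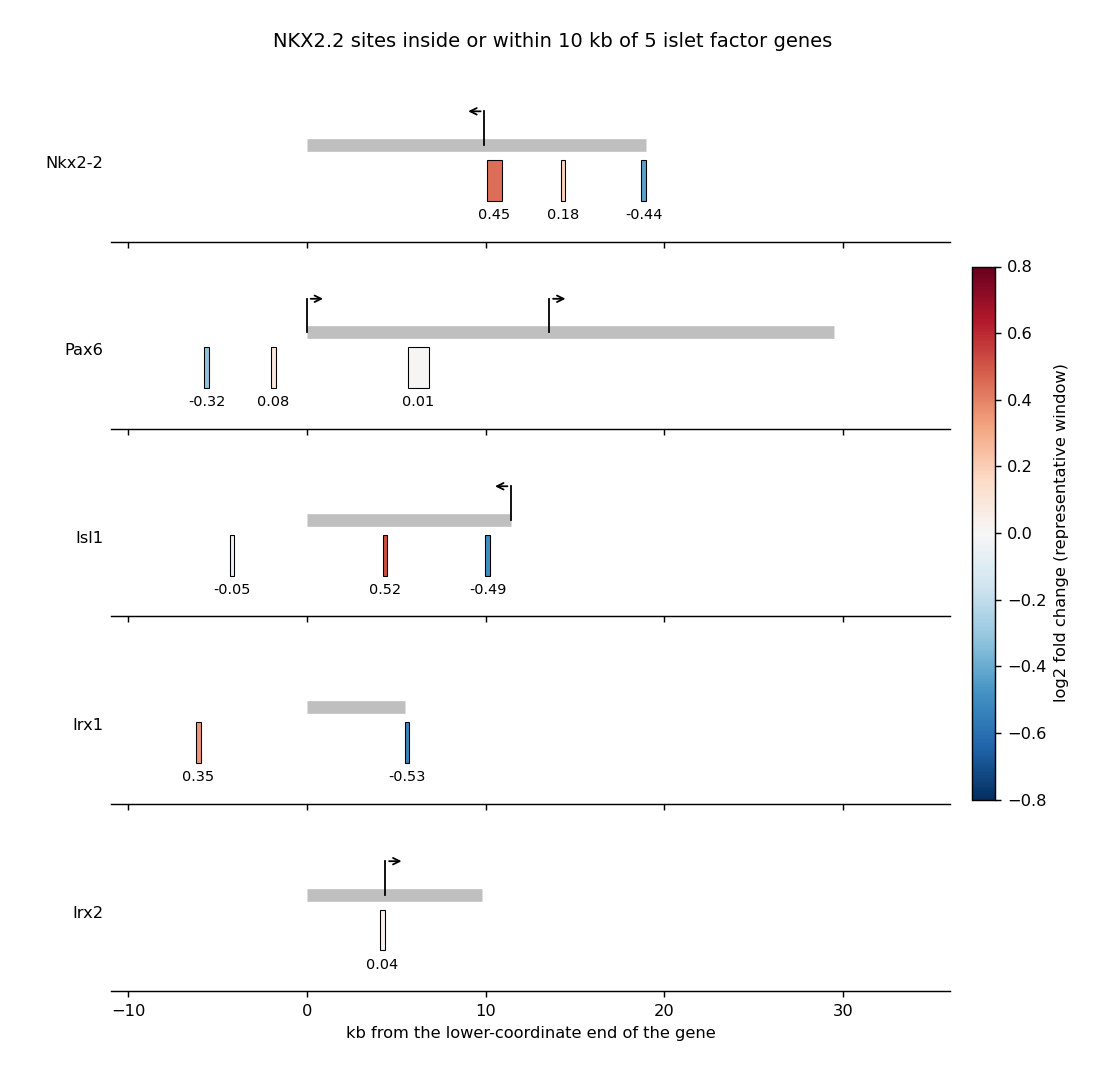
Sites inside or within 10 kb of 5 genes; the x axis is distance in kb from the lower-coordinate end of each gene, grey bars are gene bounds, arrows are listed transcription starts with their direction, and boxes are sites (drawn at least 250 bp wide) coloured and labelled by deposited log2 fold change. The 3 Nkx2-2 sites run from 0.45 beside the listed start to -0.44 at the 5′ end of the gene bounds. No start is drawn for Irx1.

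Pax6, from 105668896 to 105698410 on the plus strand of chromosome 2, had 3 sites within 12.46 kb around its first listed start. One lay 5586 bp and one 1836 bp upstream of that start, both inside the non-coding gene Pax6os1, and the third lay inside Pax6, 5655 bp past the start and before the second listed start. The upstream flank of this gene is known to hold a pancreatic enhancer.

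The farther upstream site, from 105663251 to 105663310, held 2 windows over 60 bp, with a deposited log2 fold change of -0.32 and a p-value of 0.275. The nearer, from 105666951 to 105667060, held 3 windows over 110 bp and was at 0.08 with a p-value of 0.787. The intragenic site, from 105674551 to 105675710, was the widest of the 25 at 1160 bp, with 8 windows spread over 24 steps. In the representative window the deposited log2 fold change was 0.01 and in the best window 0.43, at a combined p-value of 0.968. The smallest FDR of the 3 was 0.796, and none passed the test.

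The lower part of Elp4, whose bounds overlap the end of Pax6 and whose introns are known to hold distant Pax6 enhancers, contributed 2 further sites that the nearest-gene rule gives to Elp4. Measured to the nearest listed start, both belong to Pax6, at 33.3 and 56.5 kb. The nearer one, from 105715801 to 105715960, was at 0.61 (deposited log2 fold change; p = 0.0203, FDR 0.295 in the authors' csaw comparison). The farther one was at -0.07, with a p-value of 0.767. They were picked out after their values were seen and are not among the 25.

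Isl1, from 116298270 to 116309688 on the minus strand of chromosome 13, had 3 sites within 14.36 kb and 1 far downstream. Inside the gene, the site from 116308351 to 116308410 lay 1278 bp past the start and held 2 windows over 60 bp. It was at -0.49 on the log2 scale in the deposited table, with a p-value of 0.177. The other intragenic site, from 116302601 to 116302660 and of the same size, was at 0.52 in the deposited table, with a p-value of 0.116. A single window 4210 bp past the 3′ end of the gene, from 116294051 to 116294060, was at -0.05 with a p-value of 0.876. The 2 sites inside Isl1 thus had nearly equal and opposite values, neither of which passed the test.

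The distant Isl1 site, from 116110751 to 116110810, lay 187 kb downstream and held 2 windows over 60 bp, both counted as up. Its deposited log2 fold change of 0.76, or 1.70-fold, was the largest of the 25 in either direction. Its p-value of 0.0194 was the smallest, and after adjustment over the table the FDR was 0.289. Of all regions, 6.70% had a p-value as small. The next coding gene on that side, Itga1, lay 1196 kb from Isl1.

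Irx1 (71958232 to 71963723) and Irx2 (72624430 to 72634196) are neighbours on chromosome 13 and are separated by 660.7 kb without another protein-coding gene. Irx1 had sites 78 bp and 6072 bp from its bounds and 2 more at 302 and 304 kb. The site 78 bp beyond its upper end, from 71963801 to 71963860, had a deposited log2 fold change of -0.53 in the representative and -0.66 in the best window. Its p-value was 0.0752 and its FDR 0.530. The single window on the other side, from 71952151 to 71952160, was at 0.35 with a p-value of 0.271. The pair flanking Irx1 therefore had opposite signs. On the side away from Irx2, the site at 304 kb, from 71654001 to 71654110, held 3 windows over 110 bp. It was at 0.08 in the deposited table, with a p-value of 0.780.

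Irx2 had 1 site at the gene, the 210 bp promoter site shown above, from 72628551 to 72628760, which ends 60 bp before the start. It lies inside the bounds of Irx2, touches the end of the non-coding gene Gm20554, and its 5 windows filled every 50 bp step. The deposited table put it at 0.04 with a p-value of 0.890 and listed its direction as mixed.

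Between Irx1 and Irx2 the deposited table listed 5 regions, 1 positive and 4 negative. Apart from the one beside Irx1, 4 of them lay within 183 kb in the middle of the interval. The first, from 72265851 to 72266060, is nearest to Irx1 and held 5 windows over 210 bp. The next, from 72324451 to 72324510, lay 300 kb upstream of Irx2 and held 2 windows over 60 bp. The third, from 72397151 to 72397610, lay 227 kb upstream of Irx2 and held 8 windows over 460 bp. In genome order the deposited log2 fold changes of the 4 were -0.18, -0.16, -0.08 and 0.30, and the p-values of the first 3 ran from 0.607 to 0.810. The last, from 72448551 to 72449110, lay 175 kb upstream of Irx2 and was 560 bp wide. It held 12 windows, the most of any of the 25 sites, 3 of them counted as up. Its p-value was 0.0224 and its FDR 0.311. Its change of 0.30 was exceeded in size at 10 of the 25 sites, and 46.5% of all regions had one as large. Irx4, the next gene beyond Irx2, had 1 site, at 0.05.

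**Figure D3:**
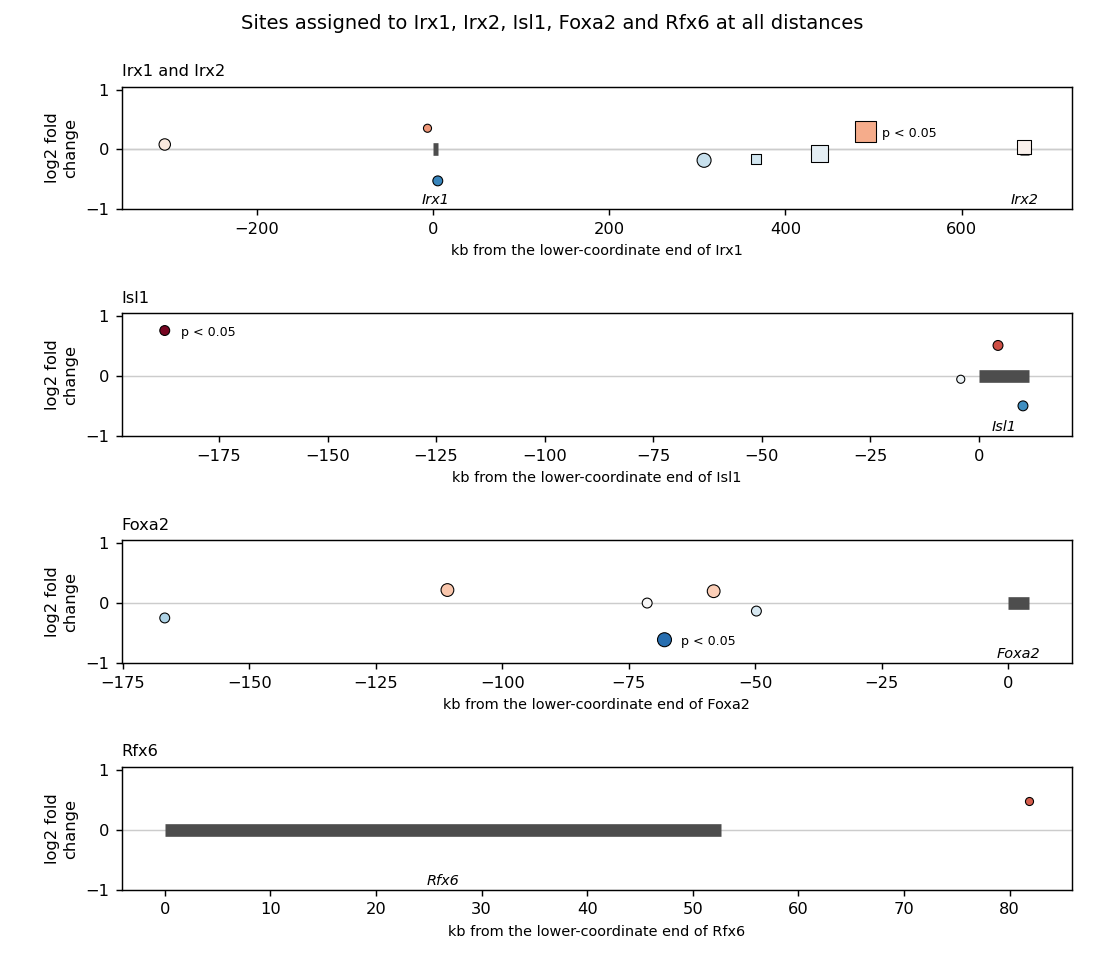
Deposited log2 fold change (y axis) of every site assigned to Irx1 (circles), Irx2 (squares), Isl1, Foxa2 and Rfx6 against distance in kb from the lower-coordinate end of the first gene named (x axis, a different scale in each panel); dark bars are gene bounds and symbol area grows with the number of windows. The 3 sites with a p-value under 0.05 lie 67.8 kb or more from their gene.

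Foxa2, from 148042877 to 148046969 on the minus strand of chromosome 2, had the most sites and none within 10 kb. All 6 lay downstream of the gene, from 49.7 to 167 kb away, and 4 of them lay within 21.66 kb inside the long non-coding RNA gene 9030622O22Rik (147944459 to 148040513).

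The farthest, from 147876101 to 147876160, lay 167 kb away and held 2 windows over 60 bp. The second, from 147931951 to 147932110, lay 111 kb away and held 4 windows over 160 bp. Inside the non-coding gene lay a 60 bp site of 2 windows at 71.3 kb (147971501 to 147971560), a 210 bp site of 5 windows at 67.8 kb (147974851 to 147975060), a 160 bp site of 4 windows at 58.1 kb (147984601 to 147984760) and a 60 bp site of 2 windows at 49.7 kb (147993101 to 147993160).

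From the farthest to the nearest, the deposited log2 fold changes were -0.25, 0.22, 0.00, -0.61, 0.20 and -0.13. The site at -0.61, 67.8 kb downstream, had 3 of its 5 windows counted as down. Its p-value in the deposited table was 0.0319 and its FDR 0.365. Its representative window was also its best window. The p-values of the other 5 ran from 0.399 to 0.996. Within the non-coding gene, then, the site with the lowest value of the 25 stood between sites at 0.00 and 0.20, at gaps of 3.29 and 9.54 kb.

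Rfx6, from 51677760 to 51730429 on the plus strand of chromosome 10, had 1 site, a single window from 51759551 to 51759560, 29.1 kb past its 3′ end. It was at 0.49 on the log2 scale. Its p-value was 0.131 and its FDR 0.644. It was the only site of the 7 genes outside chromosomes 2 and 13.

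Sites near the genes and far from them were set beside all regions at the same distance. The 12 sites inside or within 10 kb had a median log2 fold change of 0.02, against 0.03 for the 5007 regions within that distance. The 13 beyond 10 kb had a median of 0.00, against 0.11 for 1719 regions. All 3 sites with a p-value under 0.05 were among the 13 distant ones. Of all distant regions 13.1% had such a p-value, and of all near regions 10.2% did. The difference between near and distant sites of these genes was not tested.

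**Figure D4:**
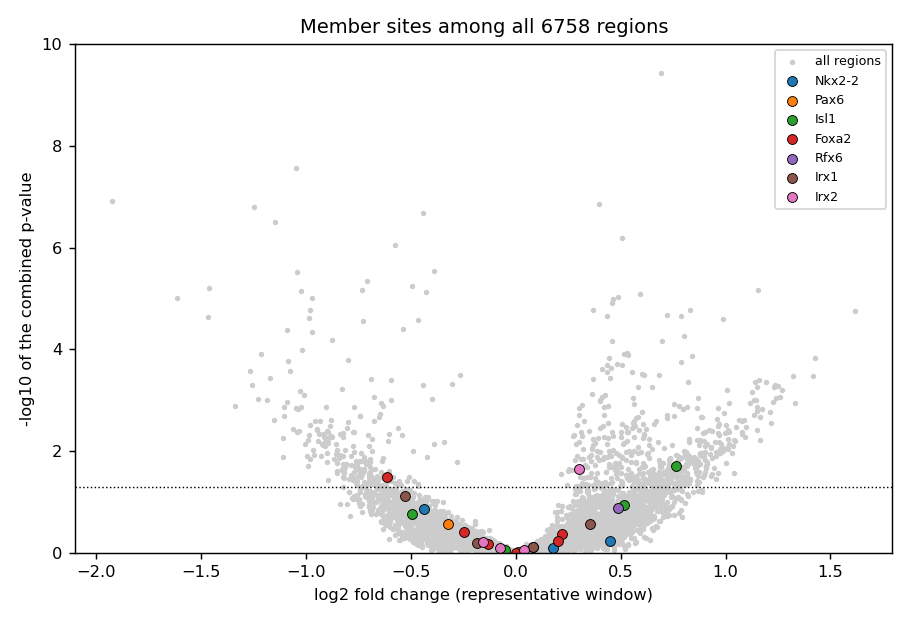
Log2 fold change of the representative window (x axis) against -log10 of the combined p-value (y axis) for all 6758 regions (grey) and the 25 sites (coloured by gene); the dotted line is an unadjusted p-value of 0.05. The 25 lie in the body of the cloud, with 3 just above the line.

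Other genes of the islet factor network, 36 in a separate list, had 34 sites at 14 genes. Of all protein-coding genes, 20.7% had a region. None of the 34 reached an FDR of 0.05 (1.36% of all regions did), and 3 had an unadjusted p-value under 0.05 (8.82%, against 11.2% of all regions). Their median deposited log2 fold change was 0.15, with 21 positive (61.8%) and 13 negative, beside 0.04 and 56.8% positive over all regions. Zbtb20, a zinc-finger repressor, had 8 sites, Etv1, an ETS factor, had 4, and Meis1, a TALE homeodomain factor, had 4. The smallest FDR, 0.150, belonged to a single-window site inside Zbtb20 with a deposited log2 fold change of -0.91. The other 2 with a p-value under 0.05 lay at Mafa (0.73) and Onecut2 (0.65) and are named after their values were seen.

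Family paralogs of the 7 genes, 26 in a second list, had 14 sites at 8 genes, where 20.7% of all protein-coding genes had a region. None reached an FDR of 0.05 (1.36% of all regions did), and 2 of the 14 had an unadjusted p-value under 0.05 (14.3%, near the 11.2% of all regions). Their median deposited log2 fold change was 0.19, with 10 positive (71.4%), beside 0.04 and 56.8% over all regions. Irx3, Pax3 and Rfx2 had 3 sites each. The smallest FDR, 0.175, belonged to a site inside Rfx2, with a deposited log2 fold change of 0.51 and a p-value of 0.0072. A site inside Pax3 was at 0.99, where the p-value was 0.0102 and the FDR 0.213. No paralog of the NK2 class had a site except Nkx2-3, which had 1 at 0.29 and is named after its values were seen. Foxa1 and Rfx3, named because they stand in both lists, had no site.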

How the data were processed

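A single table was used, the authors' own csaw comparison of the NKX2.2 ChIP samples, per the series' design text. FastQC, Bowtie2, MACS2 and build mm10 are named, without roles or versions, per the submitters' processing notes. The covariates, normalization and window filter are not given in the sources used here. Per the file headers, the deposited columns are counts of windows (not of reads), p-values with FDR values, and log2 fold changes. The deposited FDR equals a Benjamini-Hochberg adjustment over all 6758 regions. The depth per sample is unknown, so no count test was run.

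Each site took the closest among 21900 protein-coding genes in a RefSeq table (GRCm38.p6), ties going to the closer gene end. All sites of the 7 genes are named. Of the 2 other lists, the genes named are those with a site at an FDR of 0.05, or else the smallest FDR. The 3 with most sites in each list are named too. Mafa, Onecut2 and Nkx2-3 fall outside that rule and were named after their values were seen. Foxa1 and Rfx3 also fall outside it. They were named because they stand in both lists, after their lack of a site was seen. The members and lists were chosen with earlier results of these data known. A motif search over whole sites needs a genome and was not run; it was replaced by a search of 250 bases before listed starts. The assignment was run on 400 simulated sites, and for 100% the distance equalled that of a direct search over all genes of the chromosome. The rule for ties was not checked. The adjustment was run on simulated p-values over 6758 regions, where 100% of changed regions were recovered and 2.44% of calls were false. The changed regions were given very small p-values, so their recovery was fixed in advance and says nothing about detection in these data. Python 3.11.15, numpy 2.4.6, pandas 2.3.3 and matplotlib 3.10.9 were used. Alternatives covered the FDR threshold, the best window, the distance limit, the gene table and a minimum of 2 windows.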

Additional observations from a re-analysis of the deposited data

How the results depend on the processing

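Replicates could not be left out in turn, as only the finished comparison was analysed. No paired analysis was possible because its columns carry neither samples nor replicate numbers. The count of 0 sites at an FDR of 0.05 in the authors' csaw comparison (3 at an unadjusted p under 0.05) was also 0 at an FDR of 0.01 and 0.1, with the best-window FDR (0 of 25), within 10 kb (0 of 12), with the nearest gene of any biotype (0 of 8), with the nearest listed start (0 of 27) and with 2 or more windows (0 of 22). The counts of both other lists were 0 at all 3 thresholds and within 10 kb. With so few sites and 1.36% of regions called, these counts show neither absence nor stability.

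The members' median of 0.01 (log2) was 0.16 with best windows, where that of all regions was 0.15, and -0.02 with the nearest gene of any biotype; over the alternatives without best windows it ran from -0.02 to 0.02. The nearest gene of any biotype left no site at Foxa2, Irx2 or Rfx6, so the number of sites per gene depends on the gene table. The nearest start gave the Irx1 sites to Irx2, since no start was listed for Irx1. The best window kept the sign of 22 sites and reversed 3, none with a p-value under 0.05: the second Nkx2-2 site (-0.27), the third Foxa2 site from the far end (-0.0090) and the sixth (0.16). The cause was not tested.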
